A study of Mus musculus with 6 samples.

Results

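The VEGF and angiopoietin family was measured in 2T3 mouse pre-osteoblasts as 25 probe sets for 10 genes, out of 45101 probe sets in the deposited table. The members were found by symbol in the platform's probe table: the ligands Vegfa, Vegfb and Vegfc, the receptors Flt1, Kdr, Nrp1 and Nrp2, the angiopoietins Angpt1 and Angpt2, and the angiopoietin-like Angptl4. Every probe set that carries 1 of these symbols was kept, dim ones included. Total RNA came from 3 samples grown in the rotating wall vessel and 3 kept in static culture, each for 3 days, with 1 Affymetrix array per sample. In this vessel, a cylinder full of medium that turns on its side, cells stay suspended, and it is used on the ground to model microgravity. Both groups are the same 2T3 line, a single clone from the calvaria of mice that carry a viral T antigen under a Bmp2 promoter, so neither group holds the endothelial cells on which most of these ligands act. The titles of the rotated samples name their condition only by the letter R, read here as rotated because the design text names simulated microgravity as the other condition. The titles and the source field disagree for static 2 and static 3, which the source field gives as simulated microgravity; the titles were used. No label says that the samples were separate cultures, so p-values measure only how much these samples vary, and that variation may be technical.

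VEGF ligands are secreted dimers that bind receptor tyrosine kinases on endothelial cells and set off the sprouting of vessels, while angiopoietins act on the receptor Tek to steady or loosen vessels already formed. Neuropilins have no kinase of their own and present VEGF, and also class 3 semaphorins, to other receptors. In bone, osteoblasts secrete Vegfa, which is induced by low oxygen and couples the growth of vessels to that of bone.

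The RefSeq promoter table of GRCm38.p6 held 7 of the 10 members, and the angiopoietin genes and Angptl4 are named only. The 250 bases before the start site are shown for the ligands that were well measured, Vegfa and Vegfb, and for Flt1, whose probe sets lay near the dim threshold and whose window holds more kinds of these motifs. Capitals mark matches, on either strand, to the GC box core GGGCGG, the hypoxia response element core ACGTG, the cyclic AMP response element TGACGTCA and the TATA box TATAAA. The windows lie on the minus strand at chr17:46032378-46032627 for Vegfa, chr19:6987652-6987901 for Vegfb and chr5:147726012-147726261 for Flt1.
Vegfa: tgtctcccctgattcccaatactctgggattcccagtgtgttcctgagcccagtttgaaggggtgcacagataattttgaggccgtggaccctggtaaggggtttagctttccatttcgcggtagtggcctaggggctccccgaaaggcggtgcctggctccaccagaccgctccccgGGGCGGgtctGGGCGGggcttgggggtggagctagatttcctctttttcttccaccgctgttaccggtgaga
Vegfb: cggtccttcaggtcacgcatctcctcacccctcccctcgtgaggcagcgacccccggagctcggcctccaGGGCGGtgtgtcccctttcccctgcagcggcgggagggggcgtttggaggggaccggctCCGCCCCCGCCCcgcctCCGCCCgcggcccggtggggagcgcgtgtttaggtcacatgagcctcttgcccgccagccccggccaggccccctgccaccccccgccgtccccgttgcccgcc
Flt1: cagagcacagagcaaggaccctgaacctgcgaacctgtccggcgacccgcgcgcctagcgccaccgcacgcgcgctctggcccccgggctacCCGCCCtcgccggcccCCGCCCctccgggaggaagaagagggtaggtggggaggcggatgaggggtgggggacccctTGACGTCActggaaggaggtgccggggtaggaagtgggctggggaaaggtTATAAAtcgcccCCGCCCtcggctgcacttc
The GC box core occurred 2 times in the Vegfa window, 4 times in that of Vegfb and 3 times in that of Flt1, and at least once in 32.7% of all 32851 windows of this length. The Flt1 window also held 1 cyclic AMP response element, found in 1.55% of windows, and 1 TATA box, found in 12.4%. None of these 3 windows held ACGTG, which 16.6% of windows hold; the other Vegfa window of the table, at an internal start, held 1. A match describes letters only and says nothing about binding.

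Levels are given as log2 of the quantile-normalised signal plus an offset of 16.6, so that the differences of dim probe sets are understated. A probe set was called dim, and left out of the test, where its mean over the 6 arrays lay below 5.96, the 40th percentile of all probe sets. Of the 25 family probe sets 17 were tested, which represent 8 genes, and 8 were dim. Every probe set of Vegfc and Angpt2 was dim, and so were 3 of the 4 for Flt1. Differences are rotated minus static with limma's moderated standard error. The median deposited signal per array was 70.0 to 130.1, the highest in static 1, and the actin 3' over 5' signal ratio was 3.21 in rotated 1, 1.57 and 1.48 in the other rotated samples and 1.29 to 1.37 in the static samples.

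**Figure D1:**
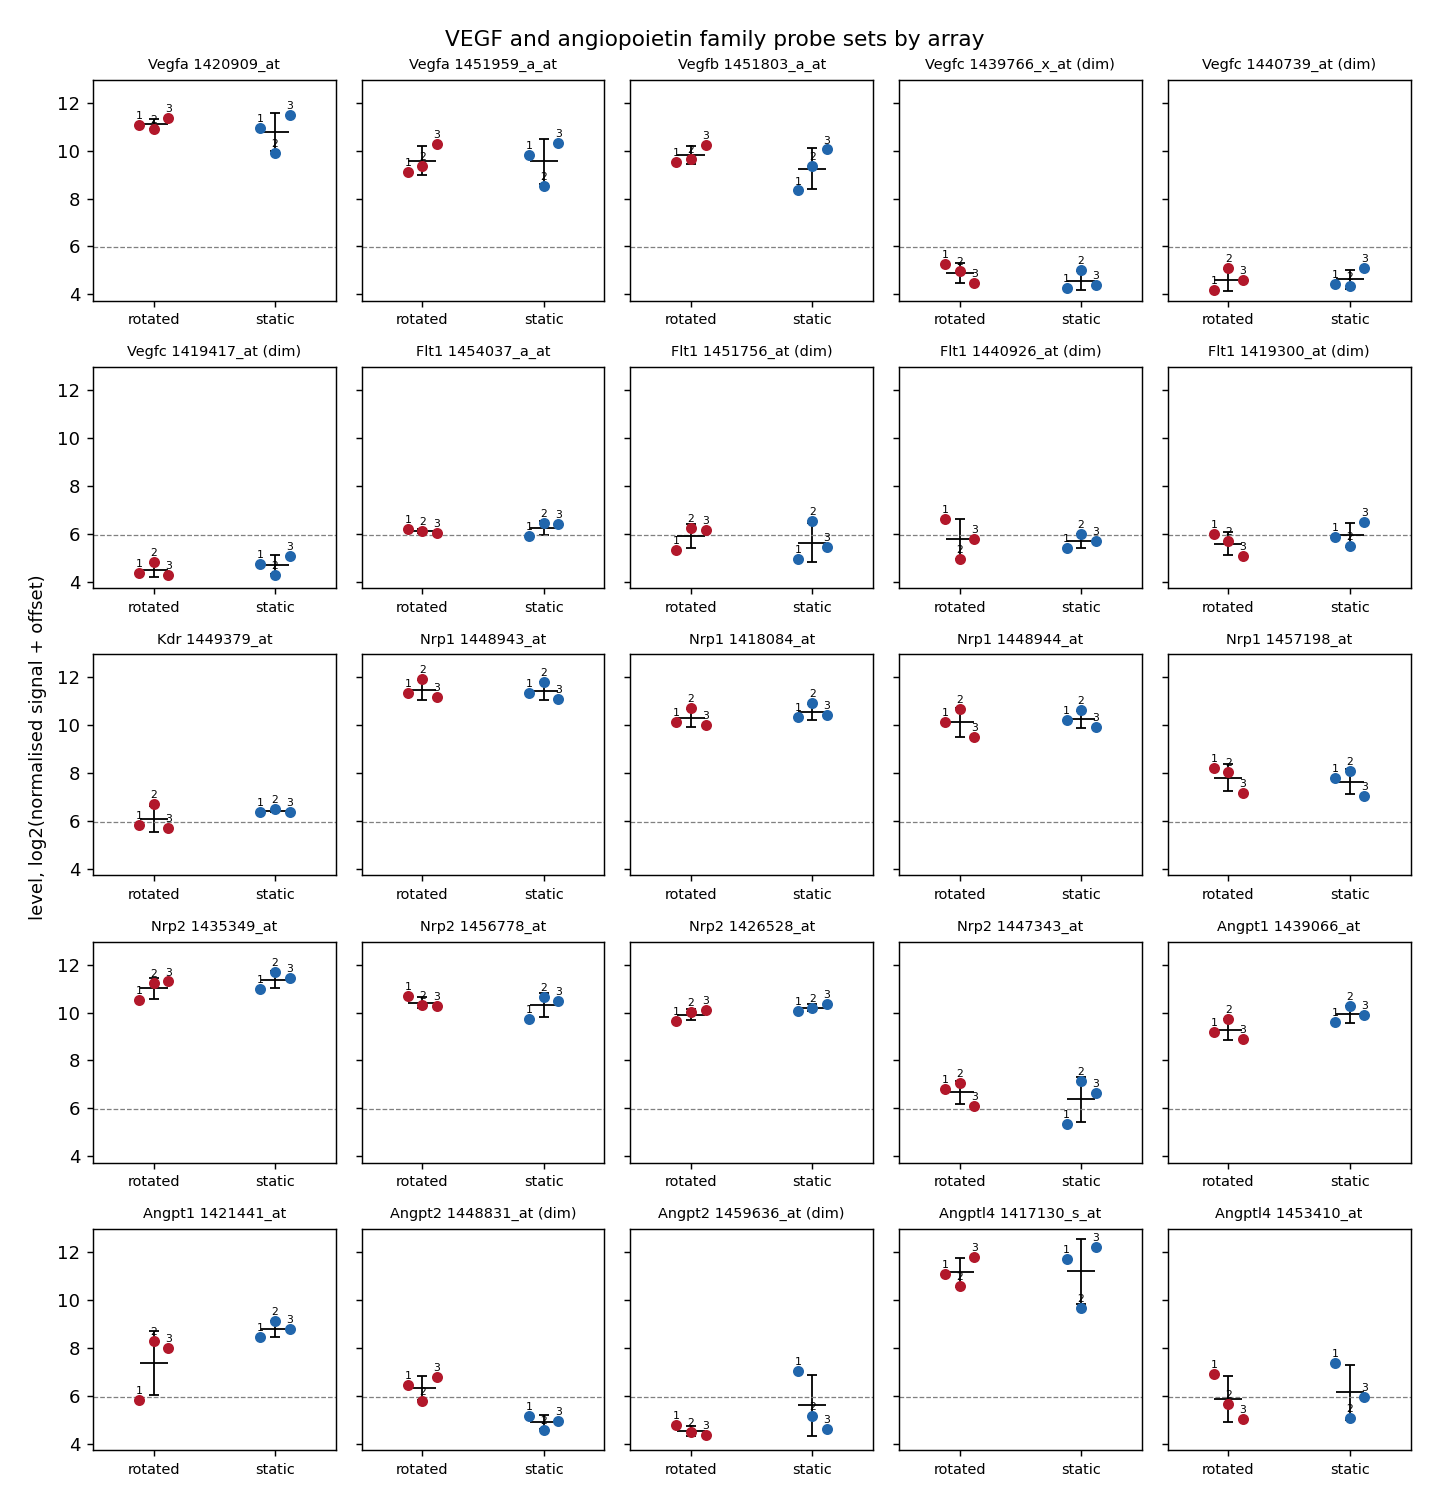
Level of each family probe set, as log2 of normalised signal plus offset, in the 3 rotated (red) and 3 static (blue) arrays; numbers are replicate numbers, black bars the mean ± SD, and the dashed line the dim threshold of 5.96. Rotated and static arrays overlapped in all but 2 panels, Angpt1 1421441_at and the dim Angpt2 1448831_at.

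The angiopoietins showed the largest differences of the family, while the VEGF ligands and neuropilins differed by less. Angpt1 was lower in value in rotated cells on both probe sets, at -1.41 (1421441_at) and -0.65 (1439066_at). Without rotated 1 these were -0.64 and -0.61, and with the actin covariate -0.24 and -0.60. The actin ratio was higher in every rotated than in every static sample, so the covariate cannot be fully separated from the group. Both probe sets of Angpt2 were dim and pointed in opposite directions, at 1.44 and -1.08. These are bulk RNA values, in which fewer cells of a type and less RNA per cell cannot be told apart. No family probe set of 17 passed an adjusted p under 0.05 in limma, and 0 of all 27022 tested probe sets did (0.0%); the smallest adjusted p in the family was 0.605. At an unadjusted p under 0.05 there was 1 family probe set of 17, or 5.88%, against 8.24% of all tested probe sets (2227 in number). That count was 0 without rotated 1 and 2 without rotated 2 or without static 1. The share without overlap between rotated and static arrays was also 1 of 17, against 15.1% of all tested probe sets. Neither share, both taken without pairing the samples, stood above its background. The differences were above 0 for 7 and below 0 for 10 of the 17, with a median of -0.14 beside 0.03 for all tested probe sets. The sign of this median depended on the scaling, since it was 0.061 with median centring, and it was -0.039 without the filter and with the stricter filter. The median size of the difference, whatever its sign, was 0.27 in the family and 0.29 over all tested probe sets. With the replicate number as a block, 4 of 17 (23.5%) had an unadjusted p under 0.05, against 14.6% of all tested probe sets, and the smallest adjusted p in the family was 0.258. These were both probe sets of Angpt1, Vegfb and 1 probe set of Nrp2.

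**Figure D2:**
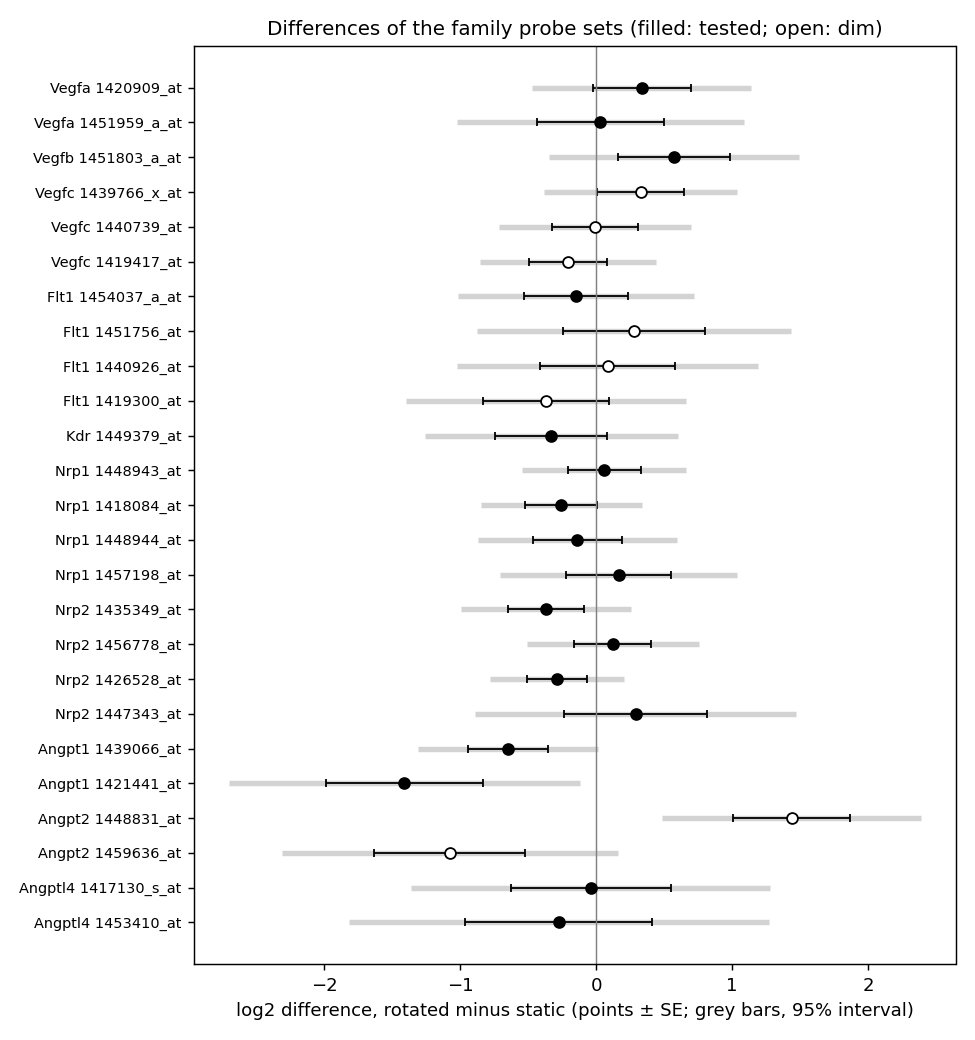
Log2 difference, rotated minus static, for each family probe set (points ± limma SE, n = 3 per group; grey bars, 95% interval; open points, dim probe sets from the fit without the filter). The intervals of Angpt1 1421441_at and the dim Angpt2 1448831_at lie on opposite sides of 0, and the other 23 include it.

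Among the ligands, Vegfa, the main endothelial growth factor of the family, was bright on all arrays and varied more among the static samples than between the groups. Its probe set 1420909_at stood at 11.07, 10.91 and 11.35 in rotated 1, 2 and 3, against 10.93, 9.91 and 11.48 in static 1, 2 and 3. The rotated values lay inside the static range, which static 2 opened at its lower end. The group means were 11.11 ± 0.22 in rotated and 10.77 ± 0.79 in static samples (SD, n = 3 each). Its difference was 0.34 ± 0.36 (SE, adjusted p 0.778 in limma), with a 95% interval of -0.47 to 1.14.

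The other Vegfa probe set, 1451959_a_at, stood at 9.11, 9.36 and 10.28 in the rotated samples, against 9.83, 8.51 and 10.31 in the static samples. Static 2 was again the lowest array and static 3 the highest. Its difference was 0.03 ± 0.47 (SE, adjusted p 0.988 in limma), with an interval of -1.02 to 1.09, so a difference of up to 1.02 downward or 1.09 upward lies within it.

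Vegfb, a ligand that binds Flt1 but not Kdr and is known for its role in heart muscle, had 1 probe set. Its level was 9.53, 9.67 and 10.25 in the rotated samples, against 8.34, 9.35 and 10.05 in the static samples. Each rotated sample stood above the static sample of the same number, by 1.19, 0.32 and 0.20, but the groups overlapped. The difference was 0.57 ± 0.41 (SE, unadjusted p 0.195, adjusted p 0.682 in limma), and with the replicate block its unadjusted p was 0.0486 and its adjusted p 0.339. The size of this difference depended on single static arrays. It was 0.12 without static 1, the array with the highest median signal, 0.97 without static 3 (unadjusted p 0.0329 in limma) and 0.012 with array weights.

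Vegfc, the ligand of lymphatic vessel growth, was dim on all 3 of its probe sets, and every array lay below the threshold. The levels of the 3 probe sets ranged from 4.18 to 5.26 in the rotated samples and from 4.27 to 5.09 in the static samples. Differences at this brightness could not be read as changes.

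The receptors with a kinase domain were at or near the dim threshold. Kdr, the main signalling receptor for Vegfa on endothelial cells, stood at 5.83, 6.71 and 5.73 in the rotated samples, against 6.38, 6.48 and 6.39 in the static samples. Rotated 2 was the highest array and the other rotated arrays the lowest. The difference was -0.33 ± 0.41 (SE, adjusted p 0.811 in limma). Flt1, a receptor that binds VEGF tightly and signals weakly, had 1 tested probe set, 1454037_a_at, at 6.19, 6.10 and 6.02 in the rotated samples, against 5.91, 6.44 and 6.40 in the static samples. Its difference was -0.15 ± 0.38 (SE, adjusted p 0.920 in limma), and the 3 dim probe sets of Flt1 differed by between -0.37 and 0.28, with no common sign.

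Endothelial marker transcripts were dim for 8 of 12 genes, among them the defining adhesion genes Pecam1 and Cdh5. The summed deposited signal of the 12 markers was 428.6 to 685.4 in the rotated arrays and 429.3 to 915.9 in the static arrays, overlapping ranges. None of the 4 tested endothelial markers had an unadjusted p under 0.05.

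Nrp1, the neuropilin that pairs with Kdr, was bright on 3 of its 4 probe sets and followed the replicate number rather than the group. The brightest, 1448943_at, stood at 11.33, 11.94 and 11.17 in the rotated samples, against 11.36, 11.82 and 11.09 in the static samples. In both groups sample 2 was the highest and sample 3 the lowest, and the differences between samples of the same number were only -0.03, 0.13 and 0.08. The difference of means was 0.06 ± 0.27 (SE, adjusted p 0.958 in limma), with a 95% interval of -0.54 to 0.66, or with the replicate block 0.06 ± 0.14 (SE).

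The other 3 Nrp1 probe sets differed by -0.26 ± 0.26 (1418084_at), -0.14 ± 0.33 (1448944_at) and 0.17 ± 0.39 (1457198_at, SE each), with adjusted p between 0.767 and 0.908 in limma. Sample 2 was the highest in both groups for 1418084_at and 1448944_at.

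Nrp2, the neuropilin better known for lymphatic vessels and for binding Vegfc, had 4 tested probe sets. Its brightest, 1435349_at, stood at 10.50, 11.23 and 11.30 in the rotated samples, against 10.98, 11.70 and 11.45 in the static samples. Each rotated sample lay below the static sample of its number, by 0.16 to 0.48. The difference was -0.37 ± 0.28 (SE, unadjusted p 0.214, adjusted p 0.696 in limma), and the replicate block gave an unadjusted p of 0.0433 and an adjusted p of 0.331. Rotated 1, whose actin ratio was 3.21, was the lowest of the 6, and without it the difference was -0.12.

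The probe set 1426528_at of Nrp2 stood at 9.65, 10.00 and 10.10 in the rotated samples, against 10.07, 10.21 and 10.34 in the static samples, and differed by -0.29 ± 0.22 (SE, adjusted p 0.701 in limma). The remaining Nrp2 probe sets differed by 0.12 ± 0.28 for 1456778_at and 0.29 ± 0.52 for 1447343_at (SE), less than their errors. Without static 1 all 4 Nrp2 probe sets were below 0, at -0.57 for 1435349_at, -0.36 for 1426528_at, -0.16 for 1456778_at and -0.23 for 1447343_at. With any other single array left out they did not share a sign. Without static 2, for example, 1456778_at was at 0.31 and 1447343_at at 0.68.

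Angpt1, the ligand that activates Tek and stabilises vessels, was lower in value in the rotated samples on both of its probe sets. Probe set 1421441_at stood at 5.83, 8.30 and 7.98 in the rotated samples, against 8.43, 9.10 and 8.80 in the static samples. In deposited signal that was 45.0, 291.9 and 233.5 in the rotated samples, against 355.8, 528.9 and 453.7 in the static samples. All rotated values lay below all static values, and rotated 1 stood far below the others and under the dim threshold.

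The mean of this Angpt1 probe set was 7.37 ± 1.34 in rotated and 8.78 ± 0.33 in static samples (SD, n = 3 each), 2.66-fold lower in rotated samples on the offset scale. The log2 difference was -1.41 ± 0.57 (SE, 95% interval -2.70 to -0.12), with an unadjusted p of 0.0357 and an adjusted p of 0.605 in limma. Rotated 1 carries the actin ratio of 3.21. Without it the difference was -0.64 (unadjusted p 0.0605 in limma), and -0.24 in a fit with the actin covariate. Since every rotated sample had a higher ratio than every static sample, that fit cannot fully separate the ratio from the group. With the replicate block the unadjusted p was 0.0089 and the adjusted p 0.258.

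Probe set 1439066_at of Angpt1 is brighter and gave 9.20, 9.75 and 8.88 in the rotated samples, against 9.60, 10.28 and 9.88 in the static samples. Rotated 2 lay inside the static range and the other rotated samples below it. Here rotated 1 was not the lowest array. The difference was -0.65 ± 0.29 (SE, unadjusted p 0.0542, adjusted p 0.606 in limma), it was -0.61 without rotated 1 and -0.60 with the actin covariate, and the replicate block gave an unadjusted p of 0.0130 and an adjusted p of 0.270. Samples of the same number differed by -0.40, -0.53 and -1.01.

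Angpt2, which can block Tek and loosens vessels where VEGF is present, was dim on both of its probe sets, and these pointed in opposite directions. Probe set 1448831_at stood at 6.44, 5.78 and 6.77 in the rotated samples, against 5.15, 4.58 and 4.95 in the static samples. In deposited signal that was 75.3, 36.7 and 78.6 in the rotated samples, against 37.6, 4.5 and 11.8 in the static samples. The deposited signals overlapped, with rotated 2 (36.7) just below static 1 (37.6). Only as normalised levels did all rotated values lie above all static values, with rotated 1 and rotated 3 above the dim threshold.

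Its mean over the 6 arrays was below the threshold, so the probe set was not tested in the filtered comparison. Groups did not overlap in 9.84% of all dim probe sets. In the fit without the filter, where 7.05% of probe sets had an unadjusted p under 0.05, its difference was 1.44 ± 0.43 (SE, unadjusted p 0.00706, adjusted p 0.674 in limma). With the replicate block that fit gave an unadjusted p of 0.0084 and an adjusted p of 0.326.

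The other Angpt2 probe set, 1459636_at, stood at 4.76, 4.47 and 4.35 in the rotated samples, against 7.05, 5.16 and 4.60 in the static samples. Its difference of -1.08 ± 0.56 (SE, from the fit without the filter) came mostly from static 1. That array also had the highest 10th percentile of deposited signal, 22.1, against 4.5 to 7.2 on the others.

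Angptl4, an inhibitor of lipoprotein lipase that does not act through Tek, spanned 2.57 on the log2 scale over the 6 arrays for 1417130_s_at, the widest range when each gene is taken by its brightest tested probe set. The dimmer probe sets 1421441_at of Angpt1 (3.27) and 1459636_at of Angpt2 (2.70) spanned more. That probe set stood at 11.06, 10.58 and 11.79 in the rotated samples, against 11.69, 9.65 and 12.21 in the static samples. The rotated values lay inside the static range, with static 2 the lowest and static 3 the highest array, as for Vegfa. In both groups sample 2 was the lowest and sample 3 the highest. The means were 11.14 ± 0.61 in rotated and 11.18 ± 1.36 in static samples (SD, n = 3 each), and the difference was -0.04 ± 0.59 (SE, adjusted p 0.988 in limma, 95% interval -1.36 to 1.28).

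The dimmer Angptl4 probe set, 1453410_at, stood at 6.90, 5.67 and 5.01 in the rotated samples, against 7.38, 5.07 and 5.97 in the static samples. It differed by -0.27 ± 0.69 (SE, adjusted p 0.915 in limma), and sample 1 was its highest array in both groups.

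Genes near Vegfa and Angptl4 in pattern were sought among 12553 other genes by the root mean square difference of levels over the 6 arrays, each centred on its own mean. The nearest to Vegfa were Tnk1, a non-receptor tyrosine kinase (0.12), Gpr84, a receptor for medium-chain fatty acids (0.13), and Iars, an isoleucyl-tRNA synthetase (0.13). In each of them static 2 was the lowest array, by 1.04 to 1.10 below the mean, where Vegfa lay 1.03 below. The nearest to Angptl4 were Psat1, an enzyme of serine synthesis (0.26), Aldh18a1, an enzyme of proline synthesis (0.27), and Stc2, a secreted stanniocalcin (0.29). All 3 were lowest in static 2 and next lowest in rotated 2, as Angptl4 was. With 6 arrays and this many genes such nearness is a description.

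**Figure D3:**
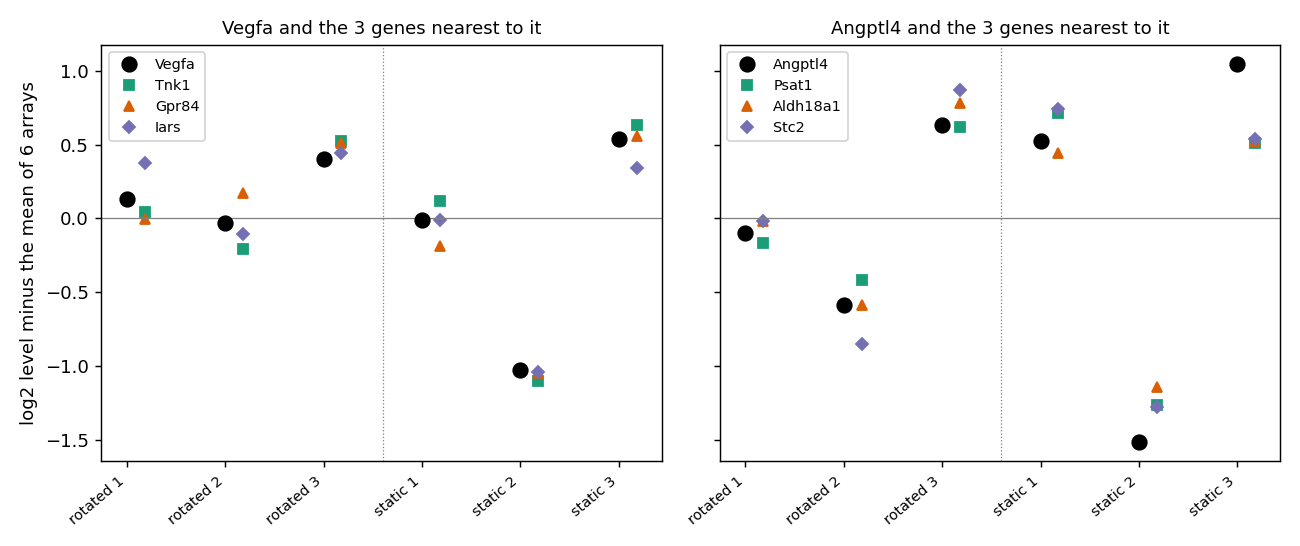
Log2 level minus the mean of 6 arrays in each rotated and static array for Vegfa (left) and Angptl4 (right), in black, with the 3 genes nearest to each in colour. Static 2 is the lowest array for all 8 genes, 1.03 below the mean for Vegfa and 1.52 below for Angptl4.

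Of the other ligands and receptors of this system 9 of 11 were on the array and 5 were tested, with 1 gene higher and 0 lower at an unadjusted p under 0.05. The background was 4.34% higher and 3.9% lower over all tested probe sets. The gene was Pgf, placental growth factor, a ligand of Flt1. Pgf stood at 7.42, 7.49 and 7.97 in the rotated samples, against 5.73, 6.38 and 7.16 in the static samples. All rotated values lay above all static values. Its difference was 1.20 ± 0.42 (SE, unadjusted p 0.0171, adjusted p 0.593 in limma), and the replicate block gave an adjusted p of 0.247. Angpt4 (0.25 ± 0.44), Vegfd (-0.20 ± 0.42) and Flt4 (0.24 ± 0.60, SE each), the lymphatic VEGF receptor, differed by less than their errors. The angiopoietin receptor gene Tek, named after its values were seen, was dim, at 6.62, 5.65 and 4.46 in the rotated samples, against 5.32, 4.63 and 4.82 in the static samples.

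The partners of neuropilins, class 3 semaphorins and plexins, had 11 of 12 genes tested. Their median difference was -0.31, beside 0.03 for all probe sets, with 5 genes above 0 and 6 below. Without rotated 1 the median was -0.13, beside 0.03 for all probe sets. At an unadjusted p under 0.05 in limma 0 were higher and 1 lower, against 4.34% and 3.9% of all tested probe sets. The 1 lower gene was Sema3g, a semaphorin of vessels, at 6.95, 7.13 and 6.74 in the rotated samples, against 8.56, 7.66 and 7.54 in the static samples (difference -0.98 ± 0.35, SE, adjusted p 0.593 in limma). Plxna4 (-0.75 ± 0.50), Sema3f (-0.61 ± 0.43) and Plxnd1 (-0.42 ± 0.31, SE each) came next by p.

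Hypoxia-inducible factors and their targets, the programme that controls Vegfa under low oxygen, had 25 of 26 genes tested. At an unadjusted p under 0.05 in limma 4.34% of all tested probe sets were higher and 3.9% lower. In this list 1 gene was higher and 1 lower at that level. With the replicate block 3 were higher and 1 lower at that level, and without rotated 1, a setting added after seeing the data, 4 were higher and 0 lower. Of all 27022 tested probe sets 1969 were higher and 1986 lower with the block. Without rotated 1 these were 505 higher and 587 lower. The median difference of the list was 0.28, with 17 above 0 and 8 below. Slc2a1, the glucose transporter GLUT1, stood at 13.46, 13.22 and 12.67 in the rotated samples, against 12.20, 11.96 and 12.17 in the static samples. It differed by 1.01 ± 0.22 (SE, unadjusted p 0.00122, adjusted p 0.491 in limma). Epas1, which encodes the factor HIF-2 alpha, had the opposite sign (-0.70 ± 0.29, adjusted p 0.605 in limma). Ndrg1 (0.45 ± 0.22) and the hydroxylase gene Egln3 (0.56 ± 0.28, SE each) followed. Against the static mean, the list's mean level was 0.00, 0.31 and 0.22 in rotated 1, 2 and 3 and 0.08, -0.36 and 0.28 in static 1, 2 and 3, so static 2 was the lowest array here too.

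Targets of PPAR and genes of lipoprotein lipase, the setting in which Angptl4 is known, had 15 of 18 genes tested. Their median difference was 0.00. At an unadjusted p under 0.05 in limma 0 were higher and 1 lower, against 4.34% and 3.9% of all tested probe sets. The lower gene was Fabp4, a fatty acid binding protein (-0.59 ± 0.23, SE, adjusted p 0.605 in limma), followed by Plin2 (0.31 ± 0.20), Gpihbp1 (-0.75 ± 0.48) and Cpt1a (0.32 ± 0.23). Secreted antiangiogenic factors had 6 of 8 genes tested, with a median of -0.62, or -0.48 without rotated 1. With the replicate block 2 were lower at an unadjusted p under 0.05 in limma, against 1986 of all 27022 tested probe sets. Without the block 0 were higher and 1 lower, against 4.34% and 3.9%. The lower gene was Thbs2, thrombospondin 2, at 10.85, 11.25 and 11.80 in the rotated samples, against 12.90, 12.25 and 12.68 in the static samples (difference -1.31 ± 0.27, SE, adjusted p 0.491 in limma). Serpinf1 (-0.58 ± 0.26), Thbs1 (-0.66 ± 0.43) and Timp3 (-0.79 ± 0.54, SE each) were below 0 as well, with unadjusted p of 0.0551 to 0.176 and adjusted p of 0.606 to 0.670 in limma. Without rotated 1 the differences were -0.28 for Serpinf1, -0.66 for Thbs1 and -0.80 for Timp3. The other 2 tested genes of this list, Col18a1 (0.10 ± 0.30) and Cxcl10 (0.17 ± 0.53, SE each), were above 0.

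**Figure D4:**
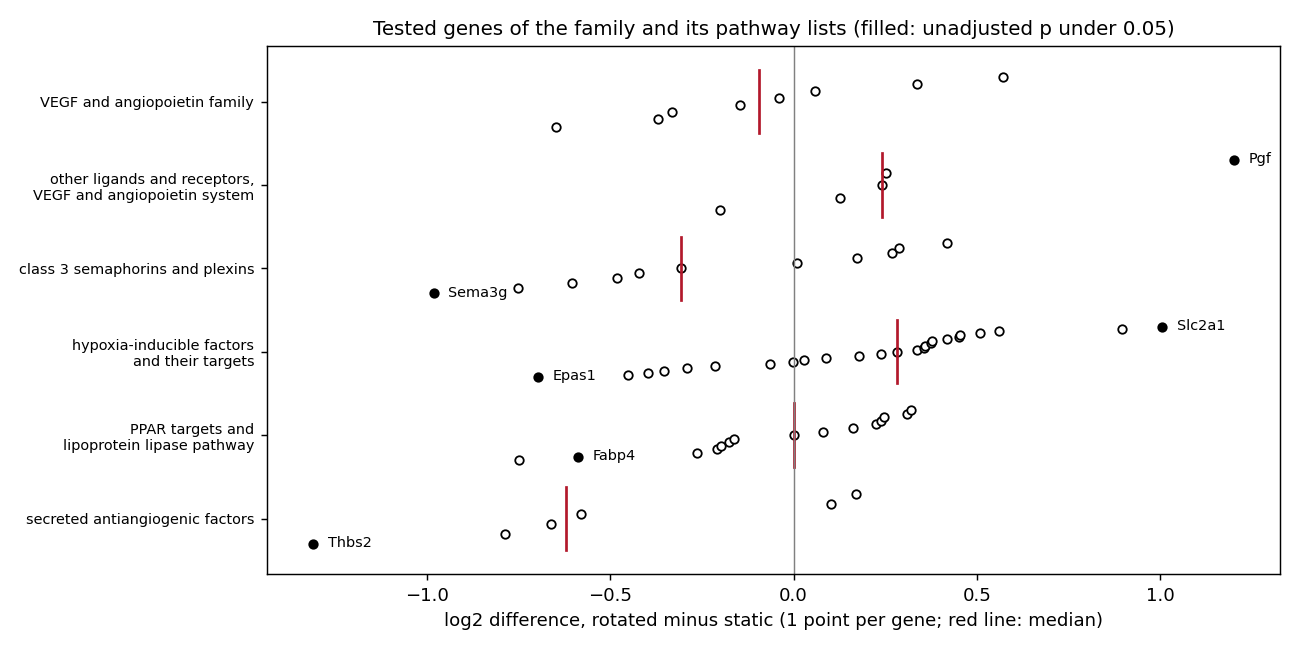
Log2 difference, rotated minus static, of each tested gene of the family and of 5 pathway lists, 1 point per gene by its brightest probe set; filled points have an unadjusted p under 0.05 and red lines are medians. The filled genes are Pgf and Slc2a1 above 0 and Sema3g, Epas1, Fabp4 and Thbs2 below 0.

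Osteoblast markers, listed to check the cell type, had mean levels above the dim threshold of 5.96 for 9 of 9 genes. Alpl (6.29 in rotated and 6.56 in static samples), Ibsp (6.09 and 6.64) and Pth1r (6.57 and 6.91) lay near it. Each of these fell below it on single arrays in both groups. All 9 differences were below 0, with 5 of 9 lower at an unadjusted p under 0.05 in limma, against 3.9% of all tested probe sets. Without rotated 1, a setting chosen for these lists after seeing the data, 2 of 9 were lower at that level, against 587 of all 27022 tested probe sets. The summed deposited signal of the osteoblast markers was 39288 to 48323 in the rotated arrays and 52183 to 57538 in the static arrays, ranges that did not overlap. Col1a2, the brightest of them, at a mean level of 14.46 in rotated and 14.82 in static samples, weighs most in this sum. Whether the shift of these markers has a part in the Angpt1 values was not tested. Of the markers of other cell types, 2 of 6 macrophage genes, 3 of 4 adipocyte genes, 1 of 6 chondrocyte genes and 2 of 6 mural cell genes were dim. The summed signal of the rotated and static arrays overlapped for macrophage genes (478.1 to 694.3 and 448.5 to 758.0), chondrocyte genes (950.6 to 3044 and 978.9 to 1931) and mural cell genes (7250 to 19708 and 13430 to 22678). Of the mural cell genes Rgs5, named after its values were seen, differed by 0.84 ± 0.35 (SE, unadjusted p 0.0409, adjusted p 0.605 in limma), with an unadjusted p of 0.0036 with the replicate block. It stood at 8.93, 9.46 and 10.16 in the rotated samples, against 8.35, 8.53 and 9.15 in the static samples. Acta2, the brightest mural cell gene, had the opposite sign (-0.59 ± 0.38, SE, unadjusted p 0.154 in limma, 0.0356 with the replicate block). Of the 4 tested mural cell genes 3 were above 0 and 1 below, and a link between these genes and the family's values was not tested. For adipocyte genes the summed signal was 2505 to 2927 in the rotated and 3044 to 4766 in the static arrays. Fabp4, which also stands among the PPAR targets, was the only tested gene of that list.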

How the data were processed

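The authors' deposited table gives 1 linear signal intensity per probe set and array, scaled to a trimmed mean of 500.0 on every array, as the values show. The summary algorithm is not given in the sources used here and detection calls were not used. Array medians differed by 85.9%, above a tolerance of 10%, so 16.6, the 20th percentile of all values, was added, and the log2 values were quantile-normalised across 45037 probe sets after 64 controls were left out. Probe sets with a mean below the 40th percentile were not tested. Symbols came from the platform's probe table, checked through gene identifiers against RefSeq GRCm38.p6. The comparison of rotated with static arrays used limma 3.58.1 under R 4.3.3 (eBayes with an intensity trend, two-sided, Benjamini-Hochberg over 27022 probe sets), without a block; dim members come from the same fit without the filter. The fit was tested on simulated data.

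Deviations from the group means correlated at 0.20, 0.31 and 0.33 for samples of the same number and between -0.19 and -0.09 for others. A fit with the number as a block is therefore given beside the main fit, which does not pair the samples. No label says what the numbers stand for. The family and all lists were chosen with earlier results of these data known. Named genes are all members, in each pathway list the up to 4 genes with the smallest p, each gene by its brightest tested probe set, and the 3 nearest genes to Vegfa and to the member whose brightest tested probe set had the widest range. Alternatives were other normalizations, offsets, filters, the replicate block, array weights, no intensity trend, the actin ratio as a covariate and samples left out. The number of arrays limits the precision.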

Additional observations from a re-analysis of the deposited data

How the results depend on the processing

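No family probe set passed an adjusted p under 0.05 in any of the 17 alternatives (smallest 0.252), and 7 of the 17 tested probe sets, both of Angpt1 included, kept their sign in every one that tested them. Probe sets called over the whole array numbered 22 with array weights, 2 with the replicate block and 0 to 0 with samples left out in turn. Those at an unadjusted p under 0.05 (2227, with 52.7% higher) numbered 701 with the actin covariate, 5139 with array weights, 1352 with median centring (68.0% higher), 3955 with the replicate block and 1092 to 3364 with samples left out, 1092 without rotated 1 and 3364 without rotated 3. Family probe sets at that level (1) numbered 0 with the actin covariate, 0 without the intensity trend, 2 with the values as deposited, 3 of 25 without the filter, 4 with the replicate block and 0 to 2 with samples left out, 0 without rotated 1 and 2 without rotated 2 or without static 1. The family's median was 0.061 with median centring and -0.17 to -0.094 with samples left out.

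The sign turned with array weights for Vegfa 1420909_at (-0.078), Vegfa 1451959_a_at (-0.36), Nrp1 1448944_at (0.29) and Nrp2 1456778_at (-0.14). It turned with the actin covariate for Nrp1 1457198_at (-0.14), Nrp2 1435349_at (0.037) and Nrp2 1456778_at (-0.051). With static 1 and rotated 1 left out together it turned for Nrp2 1456778_at (-0.30), Nrp2 1447343_at (-0.32) and Angptl4 1417130_s_at (0.26). With the values as deposited it turned for Vegfa 1451959_a_at (-0.0086) and Angptl4 1417130_s_at (0.0089), and with median centring for Angptl4 1417130_s_at (0.14). With samples left out in turn the ranges that crossed 0 were -0.094 to 0.69 for Vegfa 1420909_at, -0.49 to 0.41 for Vegfa 1451959_a_at, -0.17 to 0.26 for Nrp1 1448943_at, -0.43 to 0.17 for Nrp1 1448944_at, -0.13 to 0.49 for Nrp1 1457198_at, -0.16 to 0.31 for Nrp2 1456778_at, -0.23 to 0.68 for Nrp2 1447343_at, -0.81 to 0.48 for Angptl4 1417130_s_at and -0.81 to 0.34 for Angptl4 1453410_at. In the main fit these differences were smaller than or close to their errors, except -0.37 ± 0.28 (SE) for Nrp2 1435349_at. The cause of each turn was not tested. Angpt1 1421441_at ranged from -1.87 to -0.64 and 1439066_at from -0.88 to -0.45.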
